A study of Mus musculus with 8 samples.

Results

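The genes described here are the ligands and receptors of the 4 classical axon guidance systems. They were taken by symbol from the deposited expression table: every row named as a semaphorin (Sema), plexin (Plxn), ephrin (Efna, Efnb), Eph receptor (Epha, Ephb), Slit, Robo, netrin (Ntn) or Unc5 gene, which gave 66 of 22558 rows. Of these, 35 were ligand genes and 31 receptor genes. The cells were R1 and R1/E mouse embryonic stem cells, kept on feeder cells and then grown as embryoid bodies, which are floating aggregates of differentiating cells. Control cells were set beside cells in which doxycycline turned on Oct6, the protein of Pou3f1, a transcription factor with a POU domain that acts in the epiblast and the nervous system. RNA was sequenced from 1 control and 1 induced library at each of days 2, 4 and 6, and Oct6-bound chromatin was sequenced at day 4 from cells labelled as overexpressing Oct6, with 1 input library beside it. The sample labels add nothing on alleles, clones or the promoter of the transgene. The protocol text speaks of 6 days of doxycycline for control and inducible cells, whereas the titles name it for the induced libraries alone, so effects of doxycycline, of a cell line and of Oct6 cannot be told apart. The growth protocol is serum-free, and the meaning of the prefix fbs in the titles was not given.

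Semaphorins bind plexins, often with a neuropilin as co-receptor, ephrins bind Eph receptor tyrosine kinases, Slits bind Robo receptors, and netrins bind Dcc and the Unc5 receptors. In the nervous system these pairs attract or repel growth cones. In the early embryo the same proteins also set tissue boundaries and steer migrating cells and vessels, so their genes are not restricted to neurons.

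Pou3f1 itself stood at 64.3, 10.1 and 4.76 FPKM in control cells on days 2, 4 and 6 and at 312, 222 and 86.8 FPKM in induced cells. FPKM corrects the fragments of a gene for its length and for the size of the library, so levels of different genes can be set side by side. Relative to the control library of day 2, the estimated depth of the others ranged from 0.688 (induced, day 6) to 1.47 (control, day 4). All 6 pluripotency markers examined were at 1 FPKM or more in every library, and their summed FPKM was 1889 in control cells on day 2 and 290 on day 6 (854 and 354 in induced cells). The libraries were made from whole cultures, in which fewer cells of a type and less RNA per cell cannot be told apart.

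Of the 66 guidance genes, 58 reached 1 FPKM in at least 1 library and 32 did so in all 6. The 8 that never did were Epha5, Epha6, Epha10, Ntn4, Ntn5, Plxnb3, Sema3d and Sema3g. In control cells 36 genes were at 1 FPKM or more on day 2, 43 on day 4 and 50 on day 6. Induced cells had already 50 on day 2, then 53 and 51. Summed over the 35 ligands, the level was 99.1 FPKM in control and 154 FPKM in induced cells on day 2, and 232 and 225 FPKM on day 6. Over the 31 receptors it was 173 and 262 FPKM on day 2 and 251 and 253 FPKM on day 6. The arms were thus farthest apart on day 2 in both sums.

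**Figure D1:**
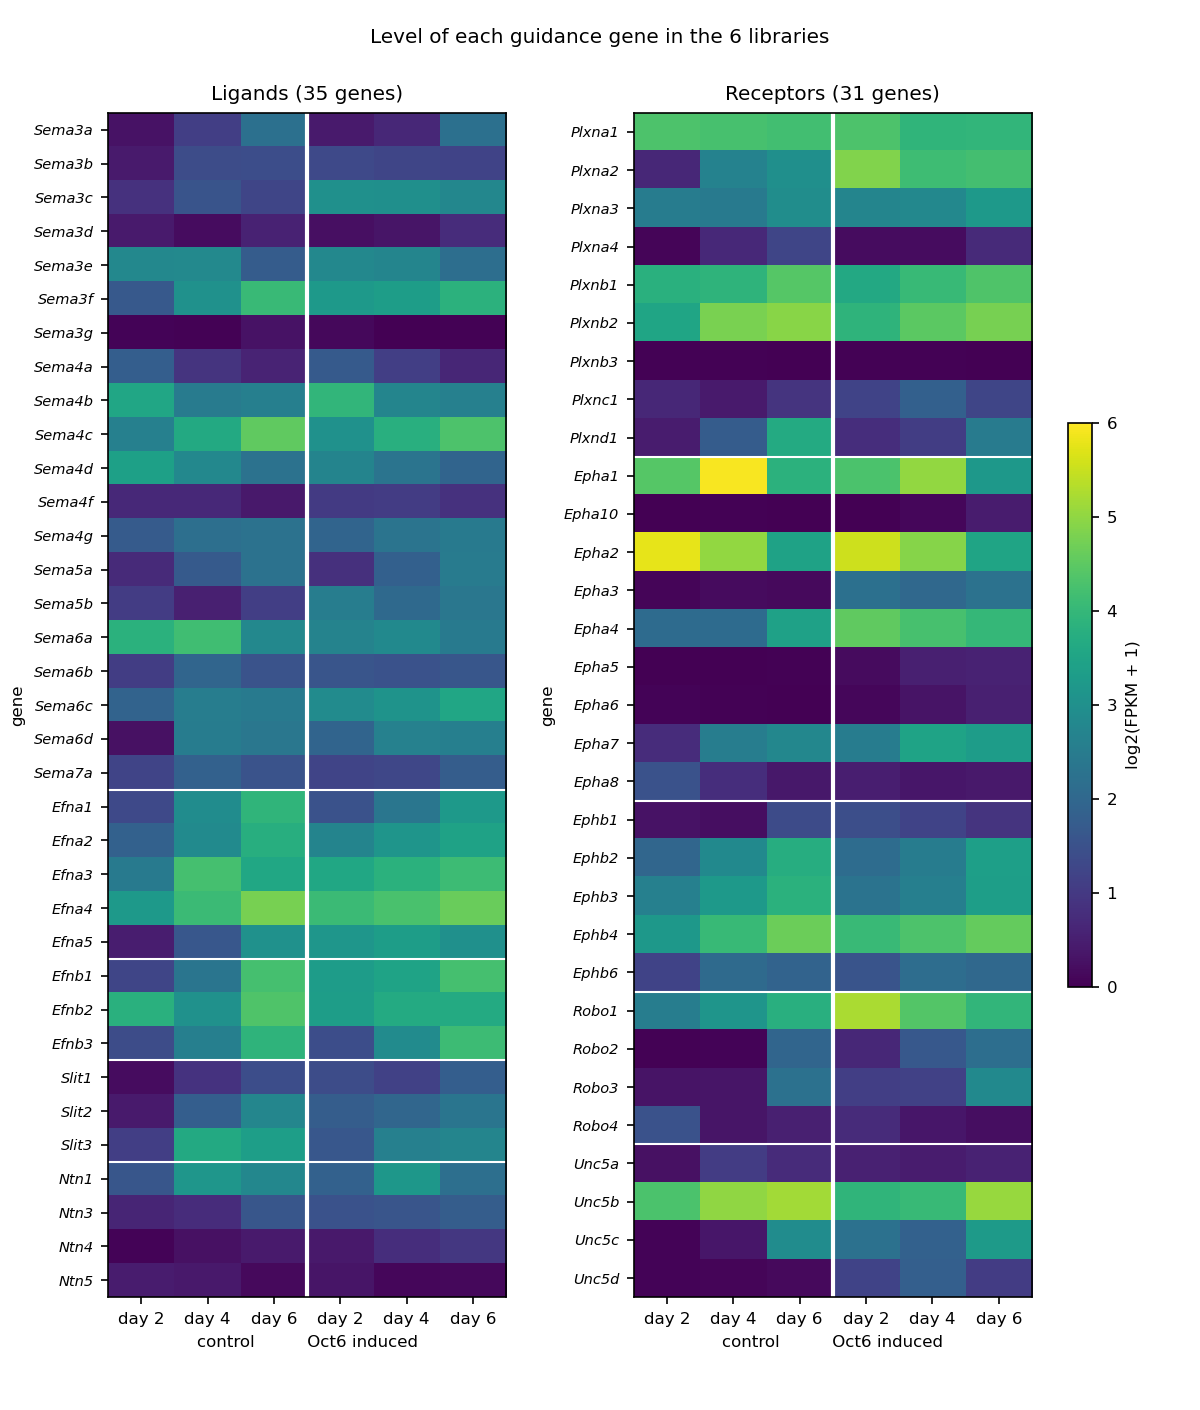
Level of the 35 ligand and 31 receptor genes (rows, grouped by family with white lines between families) in the 6 libraries (columns, control on the left of the white bar, induced on the right), as log2(FPKM + 1). Many rows that are dark in control cells on day 2 are brighter in the induced library of the same day, and 32 genes reached 1 FPKM in all 6 libraries.

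A gene was counted as higher or lower between libraries when it reached 1 FPKM in either of them and its log2(FPKM + 1) differed by at least 1, that is 2-fold; on this scale the folds of weakly expressed genes are understated. With 1 library per arm and day these counts have no replicate check. On day 2, 17 of 52 guidance genes that reached 1 FPKM were higher in induced cells (32.7%) and 1 was lower. Among all genes the shares were 9.72% higher and 1.83% lower. On day 4, 12 of 55 were higher (21.8%) and 2 lower, against 6.09% and 2.11% of all genes. On day 6, 5 of 53 were higher (9.43%) and 1 lower, against 3.37% and 2.1%. The median difference of the guidance genes, induced minus control, was 0.51, 0.20 and 0.02 on days 2, 4 and 6, beside 0.17, 0.10 and 0.06 for all genes. When libraries were put on a common scale by median ratios or by quantiles, the median of all genes on day 2 moved from 0.17 to 0.03 or -0.03, 16 or 15 guidance genes remained counted as higher, and the day 6 median of the guidance genes became -0.04 or -0.05. The same scalings changed the share of higher genes among all genes counted on day 2 from 84.2% to 75.3% or 61.8%, on day 4 from 74.2% to 66.8% or 58.9%, and on day 6 from 61.6% to 56.7% or 51.3%.

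Altogether 23 guidance genes differed on at least 1 day, 20 upward and 3 downward. Epha3, Plxna2, Sema3c and Sema5b were higher in induced cells on all 3 days. Efna5, Efnb1, Epha4, Robo1, Unc5c and Unc5d were higher on days 2 and 4. Efna3, Epha7, Ephb1, Sema3f, Sema6d, Slit1 and Slit2 were higher on day 2 alone, Plxnc1 and Robo2 on day 4 alone and Sema6c on day 6 alone. Sema6a was lower on days 2 and 4, Slit3 on day 4 and Plxnd1 on day 6. Ligands gave 9 of 29 higher on day 2 and receptors 8 of 23. On day 4 the ligands were down to 4 of 31 and the receptors gave 8 of 24. On day 6 the ligands gave 3 of 29 and the receptors 2 of 24.

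**Figure D2:**
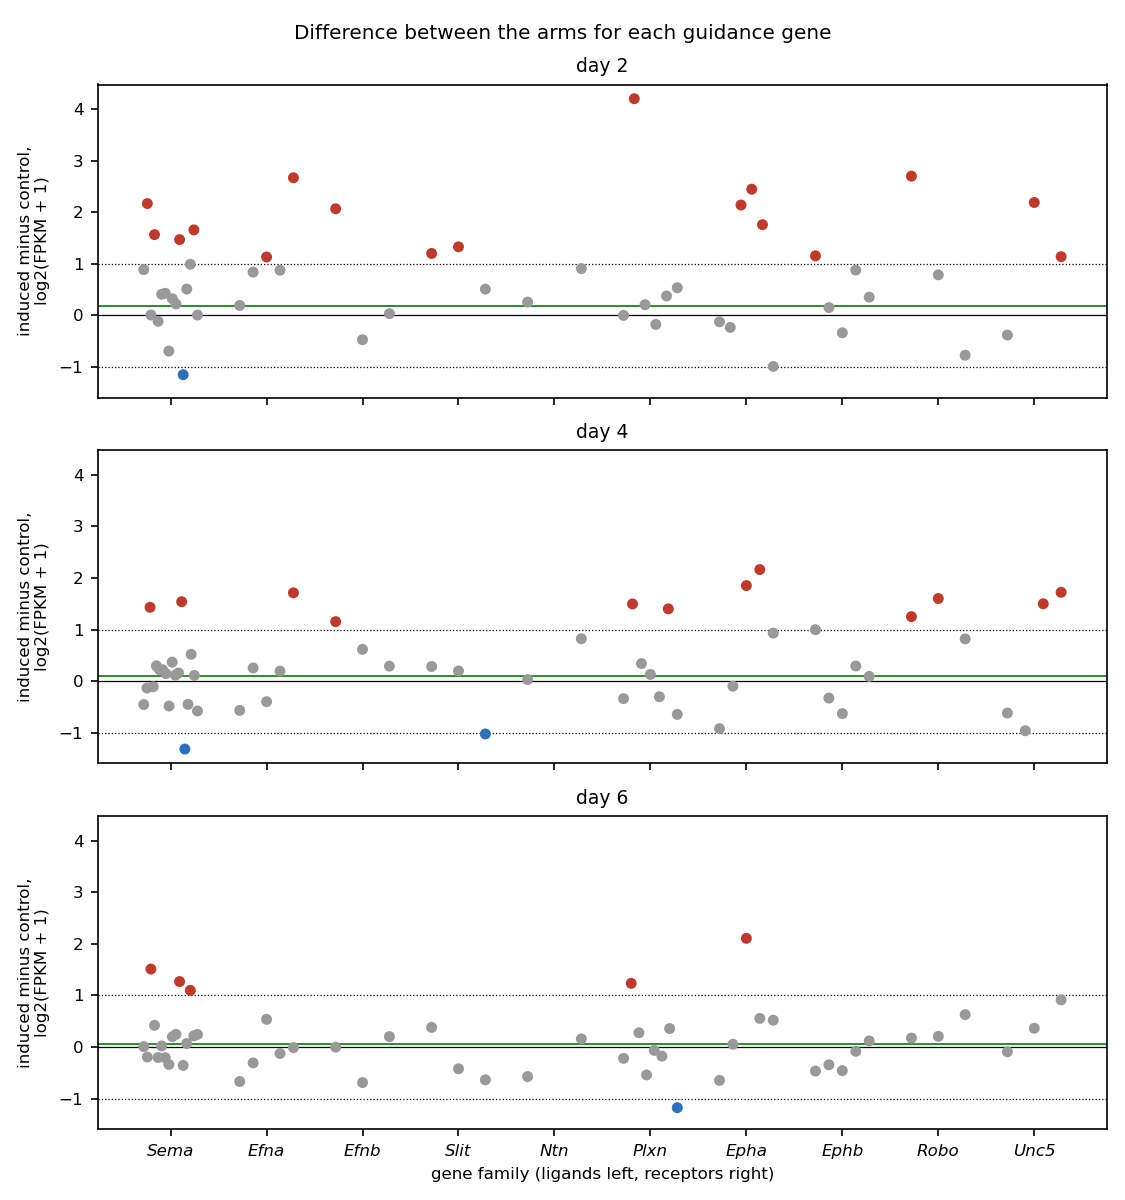
Induced minus control difference in log2(FPKM + 1) of each guidance gene that reached 1 FPKM in either library of the day, by family (x axis), for days 2, 4 and 6. Red and blue points passed the 2-fold threshold (dotted lines), and the green line is the median of all genes. On day 2, 17 points lie above the upper dotted line, and on day 6, 5 do.

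The 3 days were then treated as replicates of the difference between the arms in limma, with day as a block. The mean difference was thus set against its spread between days, which limma adjusts by the spread of other genes. At an adjusted p below 0.05, none of the 58 guidance genes tested passed (0 higher, 0 lower), as against 3 of all 13661 genes tested (0.0146% higher and 0.00732% lower). The smallest adjusted p belonged to Epha3, at 0.0637 in limma, with a mean difference of 2.03 ± 0.18. The SE, here and below, is that of limma after this adjustment. At an unadjusted p below 0.05 limma gave 16 of the 58 guidance genes higher (27.6%) and 5 lower (8.62%). Of all genes 16.3% were higher and 4.72% lower. The 5 were Epha1, Ephb3, Sema4d, Sema6a and Unc5b. Without day 6, Epha4 passed in limma with an adjusted p of 0.0481, in a fit in which 44 of 13173 genes passed (0.334%).

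A further limma fit asked for a linear trend of the difference over the days. No guidance gene passed with adjustment, the smallest adjusted p being 0.52 in limma, and of all genes 0 passed (0.0%). At an unadjusted p below 0.05, 11 of the 58 had a difference that declined from day 2 to day 6 and 0 had one that grew; among all genes the shares were 6.02% and 1.68%. The 11 were Efna2, Efna4, Efna5, Efnb1, Epha4, Ephb1, Ephb4, Plxna2, Robo1, Sema3f and Slit2.

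The deposited peak list of the day 4 ChIP library holds 7979 Oct6 peaks, each 133 bp wide. On the mm9 build, 13 of the 66 guidance genes (19.7%) had a peak centre within 10 kb of the annotated start, beside 13.2% of all genes with a position and 17.8% of genes that reached 1 FPKM. Inside the gene body 22 of 66 (33.3%) had a peak, beside 11.7% and 15.3%. Guidance genes were long, with a median of 42.0 kb against 16.3 kb for all genes. Per megabase of gene body they held 4.16 peaks, against 3.65 for all genes and 4.18 for genes that reached 1 FPKM. In all, 50 peaks lay in or near 26 guidance genes, and 42 of them were in introns. Their scores, the authors' values per peak, ran from 10.1 to 17.7 in a list whose median was 11.4 and whose highest score was 145.6, and 26 of the 50 sat at 10.1.

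Peaks upstream of the start lay 0.125 kb from Epha5, 0.186 kb from Ephb4, 0.29 kb from Ephb3, 0.468 kb from Plxnc1, 0.97 kb from Efna1, 1.759 kb from Efna5, 8.036 kb from Epha7 and 8.424 kb from Epha3. Within 10 kb downstream of the start, inside the first part of the gene, peaks lay in Robo2, Sema4b, Sema4c, Sema6b and Unc5c. Unc5c held 5 peaks in its introns, Epha7 held 4, and Efna5, Plxna2, Robo1 and Slit2 held 3 each. The highest score, 17.7, was that of an intronic peak of Sema6d, 428.8 kb into the gene. Epha4 followed with 16.5, at 18.1 kb.

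The following peaks are examples from genes that were at least 2-fold higher in induced cells at day 4, the day of the ChIP. They were chosen after their letters had been seen and do not stand for the share of peaks that hold a word. Letters are those of the mm9 forward strand, read 5′ to 3′ from the reference. Capitals mark the POU octamer ATGCAAAT and the related words ATGCATA and ATGAATA on either strand. The words can overlap each other, and the last 2 were chosen after frequent words in these peaks had been seen.
Epha4 intron, chr1:77493486-77493618: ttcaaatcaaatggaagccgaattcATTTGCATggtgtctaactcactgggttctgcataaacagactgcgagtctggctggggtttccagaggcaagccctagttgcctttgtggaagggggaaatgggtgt
Plxna2 intron, chr1:196547608-196547740: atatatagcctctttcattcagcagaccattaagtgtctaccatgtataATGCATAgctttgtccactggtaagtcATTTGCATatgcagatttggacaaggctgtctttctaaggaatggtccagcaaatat
Plxna2 intron, chr1:196598558-196598690: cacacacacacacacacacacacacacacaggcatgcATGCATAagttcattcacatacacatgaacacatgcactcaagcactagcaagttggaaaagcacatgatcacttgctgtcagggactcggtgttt
Robo1 intron, chr16:73025942-73026074: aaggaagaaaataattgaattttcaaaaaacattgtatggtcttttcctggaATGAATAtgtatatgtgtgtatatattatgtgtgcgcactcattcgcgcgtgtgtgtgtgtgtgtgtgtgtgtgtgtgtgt
Unc5c intron, chr3:141161567-141161699: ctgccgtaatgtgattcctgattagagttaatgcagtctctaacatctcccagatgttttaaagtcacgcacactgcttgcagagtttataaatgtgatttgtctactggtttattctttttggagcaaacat
Efna5 upstream, chr17:63232359-63232491: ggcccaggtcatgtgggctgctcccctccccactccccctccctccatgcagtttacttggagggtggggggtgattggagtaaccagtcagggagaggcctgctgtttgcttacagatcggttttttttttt
Epha3 upstream, chr16:63872342-63872474: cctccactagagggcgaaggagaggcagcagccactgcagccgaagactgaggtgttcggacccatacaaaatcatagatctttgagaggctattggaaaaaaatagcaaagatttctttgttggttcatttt

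The Epha4 intron peak holds the octamer on the reverse strand, as does the first Plxna2 peak, which also holds ATGCATA. The second Plxna2 peak holds ATGCATA and the Robo1 peak ATGAATA. None of the 3 words is in the printed windows of Unc5c, Efna5 and Epha3. Over the 50 peaks of guidance genes, 8% held ATGCAAAT, 12% ATGCATA and 12% ATGAATA, and 28% (14) at least 1 of them. Of all peaks on the assembled chromosomes 4.19%, 13.7% and 12.9% held these words and 27.0% at least 1; of windows of equal width whose outer end lay 500 bp from a peak 1.27%, 2.64% and 3.69% did, and 7.3% at least 1. The guidance gene peaks thus held them at about the share of the whole list. A match describes letters in a window and is no measure of binding.

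**Figure D3:**
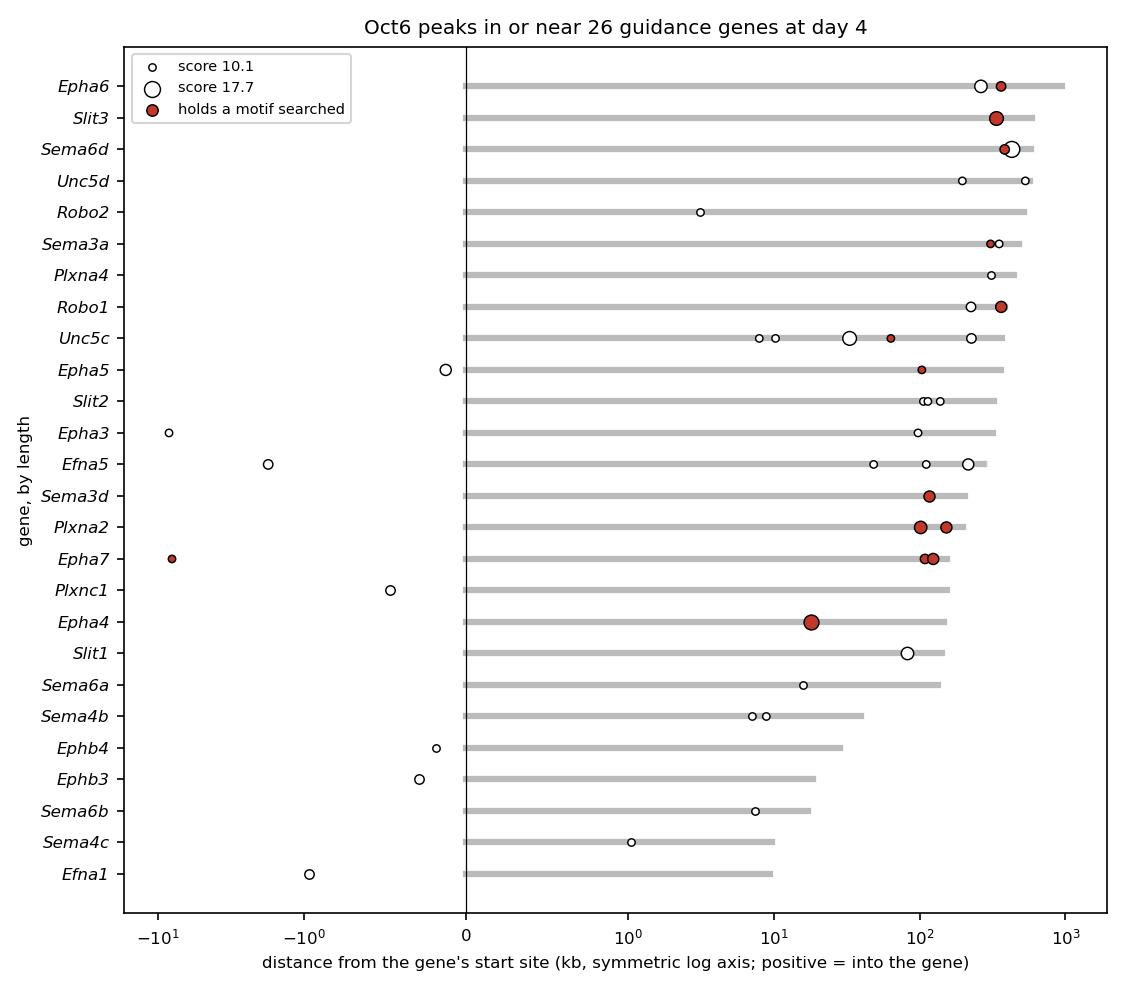
Oct6 peaks of day 4 (circles, larger for a higher score) in or within 10 kb of 26 guidance genes, by distance from the start of the gene in kb on a symmetric log axis; grey bars are gene bodies, and genes are ordered by length. Red circles hold at least 1 of the words searched and are drawn on top where circles overlap. Of the 50 peaks, 42 lie to the right of the start, on the gene bars, most of them far inside long genes.

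Among guidance genes with a peak in the body or within 10 kb, 11 of 20 that could be counted on day 2 were higher in induced cells (55.0%), and 6 of 32 without a peak were (18.8%). The genes with a peak were also longer, with a median of 241 kb against 25.2 kb. All 11 were longer than 100 kb, where 11 of 14 genes with a peak (78.6%) and 3 of 6 without were higher. Of guidance genes up to 100 kb, 0 of 6 with a peak and 3 of 26 without were higher. Over all genes of any length, 14.4% of those with a peak and 8.2% of those without were higher on day 2. Over 100 kb these shares of all genes were 29.2% and 14.0%, and up to 100 kb 9.79% and 7.64%. On day 4, the day of the ChIP, 9 of 22 guidance genes with a peak and 3 of 33 without were higher. Over 100 kb 9 of 16 and 2 of 7 were. The shares of all genes on day 4 were 9.67% with a peak and 4.8% without, and 23.2% and 8.96% over 100 kb. Lower on day 4 were 2 of the 22 with a peak (9.09%) and 0 of the 33 without, beside 1.23% and 2.38% of all genes. On day 6 the genes with a peak gave 2 of 23 higher (8.7%) and those without 3 of 30. Of all genes 5.1% and 2.67% were higher on that day. This split by length was added after the values had been seen, and no test was made of it. Gene length thus differed between the genes compared, and its part in the counts was not tested.

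Among the semaphorins, 4 of 16 that could be counted were higher in induced cells on day 2, 2 of 18 on day 4 and 3 of 16 on day 6. Values are given in the order day 2, day 4 and day 6 from here on. Sema3c, a secreted semaphorin that guides neural crest cells into the cardiac outflow tract, was at 0.809, 1.95 and 1.4 FPKM in control and 7.12, 6.96 and 5.84 FPKM in induced cells. All 3 induced values were above all 3 control values, and the differences in log2(FPKM + 1) were 2.17, 1.43 and 1.51 (limma over 3 days, adjusted p = 0.0885). Sema5b, a transmembrane semaphorin with thrombospondin repeats, was at 1.1, 0.434 and 1.15 FPKM in control and 4.82, 3.17 and 4.17 FPKM in induced cells. Here too the arms did not overlap, with differences of 1.47, 1.54 and 1.27 (limma, adjusted p = 0.0885). No Oct6 peak was listed in or within 10 kb of either gene. Genes described here and below as having arms that do not overlap were picked because the same values passed 2-fold. The share of all genes without overlap was not computed.

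Sema6c, a transmembrane semaphorin of class 6, was at 2.76, 4.87 and 4.5 FPKM in control and 6.47, 7.42 and 10.8 FPKM in induced cells, with differences of 0.99, 0.52 and 1.1, so that day 2 fell just short of the threshold that day 6 passed. Sema6d, of the same class and a ligand of plexin A1, was at 0.203, 4.74 and 4.22 FPKM in control and 2.79, 5.19 and 5.06 FPKM in induced cells. Its induced library was higher on day 2 alone, by 1.66, and control cells had come to within 0.11 by day 4. Sema3f, a secreted semaphorin that acts through neuropilin 2, was at 2.22, 7.2 and 15.7 FPKM in control and 8.52, 9.07 and 13.5 FPKM in induced cells. Control cells on day 6 were above induced cells on day 2 for both genes.

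Sema6a ran the other way. This transmembrane ligand of plexins A2 and A4 was at 13.3, 16.9 and 5.99 FPKM in control and 5.42, 6.17 and 4.45 FPKM in induced cells, with differences of -1.15, -1.32 and -0.36. Every control value except that of day 6 was above all induced values, and the limma estimate over the 3 days was -0.94 ± 0.22 (SE; adjusted p = 0.149). Visceral endoderm markers, which the embryoid bodies could also hold, summed to 36.9, 130 and 176 FPKM in control and 6.69, 7.17 and 13.8 FPKM in induced cells over 7 of 7 genes, of which 4 to 7 reached 1 FPKM in control and 2 to 4 in induced libraries, none being listed at 0. Their part in the difference of Sema6a was not tested. In Sema4d, a ligand of plexin B1, the control stayed above the induced library of the same day without passing 2-fold, at 9.63, 5.92 and 3.83 FPKM in control and 5.57, 3.95 and 2.81 FPKM in induced cells.

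The highest semaphorin was Sema6a in control cells on days 2 and 4, Sema4b in induced cells on day 2 and Sema4c in the other 3 libraries. Sema4b, at 10.6, 4.67 and 5.03 FPKM in control and 14.5, 5.61 and 5.1 FPKM in induced cells, and Sema4c, at 5.08, 11.5 and 22.2 FPKM in control and 7.17, 12.9 and 19.1 FPKM in induced cells, are transmembrane semaphorins of class 4. Their levels crossed, Sema4b being the higher of the pair on day 2 and Sema4c on days 4 and 6 in both arms. Sema3a, the founding secreted semaphorin and a neuropilin 1 ligand, was at 0.233, 1.18 and 3.62 FPKM in control and 0.358, 0.592 and 3.63 FPKM in induced cells. Sema5a was at 0.653, 2.22 and 3.8 FPKM in control and 0.77, 2.6 and 4.69 FPKM in induced cells and Sema4a at 2.49, 0.861 and 0.522 FPKM in control and 2.22, 1.17 and 0.568 FPKM in induced cells. Differences between the arms stayed below 2-fold on every day in these 3 genes. Sema6b, which carried an intronic peak, was at 1.11, 2.91 and 1.92 FPKM in control and 2.01, 1.86 and 2.05 FPKM in induced cells, and Sema3d, with a peak 115 kb into the gene, was at 0.354, 0.152 and 0.479 FPKM in control and 0.189, 0.268 and 0.707 FPKM in induced cells. The remaining semaphorins ranged from 0 (Sema3g, listed at 0 in induced cells on day 4) to 6.11 FPKM (Sema3e in control cells on day 4).

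The ephrins, ligands bound to the membrane by a lipid anchor (ephrin A) or by a transmembrane segment (ephrin B), gave 3 of 8 genes higher on day 2, 2 of 8 on day 4 and 0 of 8 on day 6. Efna5, a graded ligand in the map of retinal axons onto the midbrain, was at 0.4, 2.08 and 7.16 FPKM in control and 7.88, 9.07 and 7.08 FPKM in induced cells. Control cells reached the induced level on day 6, where the difference was -0.01 after 2.67 and 1.71. Efnb1, an X-linked ephrin of the neural crest and of tissue boundaries, was at 1.39, 4.02 and 17.8 FPKM in control and 9.02, 10.2 and 17.7 FPKM in induced cells. It followed the same course, with differences of 2.07, 1.15 and -0.005, and under quantile scaling that of day 4 was 0.99. Efna3 was at 4.43, 17.9 and 10.9 FPKM in control and 10.9, 13.3 and 16.3 FPKM in induced cells. Its day 2 difference of 1.13 was 0.997 after median ratio scaling and 0.78 after quantile scaling.

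Efna4 was the highest ephrin A in 5 of the 6 libraries, at 8.28, 16 and 26.1 FPKM in control and 16, 18.4 and 23.8 FPKM in induced cells, and Efna1 was at 1.51, 6.6 and 14.1 FPKM in control and 1.87, 4.13 and 8.5 FPKM in induced cells. Efna2 was at 2.65, 6.28 and 12.5 FPKM in control and 5.53, 7.69 and 9.91 FPKM in induced cells. All 5 ephrin A genes were at least 2-fold higher in control cells on day 6 than on day 2, and in induced cells Efna1 alone was. Efnb3, a midline barrier to corticospinal axons, was at 1.62, 5.04 and 14 FPKM in control and 1.68, 6.39 and 16.2 FPKM in induced cells. The arms stayed within 0.29 of each other on each day while the gene rose, and its slope of 1.3 ± 0.09 (SE) per 2 days had the smallest adjusted p of any guidance gene in limma, 0.0141. Efnb2, the ephrin of arteries, was at 13.1, 7.25 and 19.4 FPKM in control and 9.15, 11.6 and 11.6 FPKM in induced cells. Efna3 and Efna4 share exon sequence with an overlapping gene, as do 12 other guidance genes (Epha1, Epha6, Epha10, Ephb1, Ephb4, Ntn1, Ntn3, Ntn5, Plxna1, Plxna4, Plxnb1 and Unc5a). The sources used here do not say whether the libraries kept the strand, so the levels of these 14 genes are uncertain.

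The 3 Slit genes, which encode large secreted repellents, were low in control cells on day 2. Slit1 was at 0.144, 0.829 and 1.66 FPKM in control and 1.63, 1.23 and 2.46 FPKM in induced cells. Slit2 was at 0.35, 2.47 and 5.72 FPKM in control and 2.39, 2.97 and 4.01 FPKM in induced cells. Slit3 was at 1.18, 11.5 and 9.28 FPKM in control and 2.09, 5.16 and 5.61 FPKM in induced cells. Slit1 and Slit2 were higher in induced cells on day 2, by 1.20 and 1.33, and Slit3 was lower on day 4, with a difference of -1.02. Cardiac muscle markers summed to 14.1 FPKM in control and 3.69 FPKM in induced cells on that day, and their part in it was not tested. All 3 were at least 2-fold higher in control cells on day 6 than on day 2, whereas in induced cells only Slit3 was. Slit1 held 1 intronic peak, Slit2 held 3 and Slit3 held 1, with a score of 15.2 and the word ATGAATA. Of the netrins none passed the threshold between the arms on any day. Ntn1, the secreted netrin that attracts commissural axons, was the highest, at 2.03, 7.84 and 5.81 FPKM in control and 2.63, 8.02 and 3.57 FPKM in induced cells, and Ntn3 was at 0.529, 0.7 and 2.04 FPKM in control and 1.86, 2.01 and 2.39 FPKM in induced cells.

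Among the plexins, 1 of 6 that could be counted was higher in induced cells on day 2, 2 of 7 on day 4 and 1 of 8 on day 6. Plxna2, a receptor for class 3 and class 6 semaphorins, had the largest difference of any guidance gene in log2(FPKM + 1), at 0.597, 5.28 and 6.89 FPKM in control and 28.3, 16.7 and 17.5 FPKM in induced cells. All induced values were above all control values. The difference of 4.2 on day 2 became 1.5 on day 4 and 1.23 on day 6, the control level being higher on the later days and the induced level lower (limma over 3 days, adjusted p = 0.162). The gene held 3 intronic peaks, of which the sequences of 2 are given above. Its ligand Sema6a was lower in induced cells on the days on which Plxna2 was higher by the most.

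Plxnc1, a receptor for Sema7a, was at 0.585, 0.356 and 0.87 FPKM in control and 1.3, 2.58 and 1.39 FPKM in induced cells, and had a peak 0.468 kb before its start. Its induced values were all above its control values, and day 4 passed the threshold with 1.4. Sema7a itself was at 1.34, 2.65 and 1.88 FPKM in control and 1.35, 1.44 and 2.41 FPKM in induced cells. Plxnd1, the receptor of vessels for Sema3e, was lower in induced cells on day 6, at 0.383, 2.35 and 11.8 FPKM in control and 0.733, 1.14 and 4.65 FPKM in induced cells. The difference was 0.33 on day 2, -0.65 on day 4 and -1.18 on day 6. Endothelial markers summed to 11, 19.2 and 52.3 FPKM in control and 7.23, 9.60 and 28.4 FPKM in induced cells over 7 of 7 genes, of which 2 to 7 and 2 to 6 reached 1 FPKM and Emcn was listed at 0 in control cells on day 4 and induced cells on days 2 and 4. On day 6, in control and induced cells, Kdr was at 13.2 and 5.44 FPKM, Cdh5 at 6.55 and 1.51 FPKM, Tie1 at 7.20 and 1.76 FPKM, Tek at 5.84 and 1.01 FPKM and Emcn at 4.16 and 0.227 FPKM. Flt1 was higher in the induced library, at 10.1 and 14 FPKM, and Pecam1 was at 5.31 and 4.38 FPKM. Blood markers summed to 1534 and 156 FPKM and cardiac muscle markers to 191 and 9.42 FPKM on that day. The part of these cell types in the difference of Plxnd1 was not tested.

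Plxna1 and Plxnb2 were the plexins of highest level in most libraries. Plxna1 was at 19, 18.1 and 17.1 FPKM in control and 19, 14.1 and 14.5 FPKM in induced cells, and Plxnb2, a receptor for class 4 semaphorins, at 10.5, 26.6 and 29.7 FPKM in control and 13.9, 21.4 and 26.1 FPKM in induced cells. Neither differed 2-fold between the arms. Plxna4, with a peak 307 kb into the gene, was at 0.0565, 0.605 and 1.4 FPKM in control and 0.153, 0.153 and 0.65 FPKM in induced cells. Plxnb1 ranged from 11.4 to 20.5 FPKM and Plxna3 from 4.50 to 8.32 FPKM over the 6 libraries, and Plxnb3 reached 0.0236 FPKM at most.

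The ephrin A receptors, tyrosine kinases, gave 3 of 6 higher on day 2, 2 of 5 on day 4 and 1 of 5 on day 6, and none lower. Epha3, a receptor with high affinity for Efna5, was at 0.0602, 0.122 and 0.107 FPKM in control and 3.67, 3.05 and 3.76 FPKM in induced cells. It was near the lower end of the scale in every control library and above 3 FPKM in every induced library, and the differences of 2.14, 1.85 and 2.1 hardly varied over the days. Its peaks lay 8.424 kb upstream and 97.5 kb inside the gene, both at the score of 10.1. Epha4, which binds ephrins of both classes and holds corticospinal axons from crossing the midline, was at 3.28, 3.25 and 9.82 FPKM in control and 22.3, 18 and 14.9 FPKM in induced cells. The arms did not overlap, and the difference was 2.44, 2.16 and 0.55 (limma over 3 days, adjusted p = 0.145). Epha7, expressed in the forebrain, was at 0.684, 4.81 and 5.91 FPKM in control and 4.69, 10.1 and 8.9 FPKM in induced cells, with differences of 1.76, 0.93 and 0.52 and 4 intronic peaks and 1 upstream.

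Epha2 or Epha1 was the highest ephrin A receptor in 5 of the 6 libraries, and Epha4 in induced cells on day 6. Epha2, which is also expressed in pluripotent and epithelial cells, was at 54, 31.4 and 9.9 FPKM in control and 45.8, 29.2 and 10.3 FPKM in induced cells, without a 2-fold difference between the arms on any day. It made up 67.2% of the summed level of its family in control cells on day 2 and 47.8% in induced cells. Epha1 was at 20.5, 60.7 and 13.5 FPKM in control and 18.7, 31.6 and 8.23 FPKM in induced cells. Epha5, with a peak 0.125 kb before its start, stayed below the threshold for counting at 0.00468, 0.00636 and 0.0239 FPKM in control and 0.122, 0.44 and 0.478 FPKM in induced cells. Epha6, with 2 intronic peaks and the longest of these genes, was at 0.0356, 0.0238 and 0 FPKM in control and 0.0801, 0.243 and 0.447 FPKM in induced cells. For Epha5 and Epha6 each induced value was above the control value of the same day. Epha8 went from 1.83 to 0.313 FPKM in control cells and was between 0.281 and 0.427 FPKM in induced cells.

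Of the 5 ephrin B receptors, Ephb1 was higher in induced cells on day 2 and none on days 4 and 6. Ephb1, the receptor that turns ventral retinal axons at the optic chiasm, was at 0.23, 0.163 and 1.57 FPKM in control and 1.74, 1.32 and 0.86 FPKM in induced cells. The difference was 1.15 on day 2 (0.98 under quantile scaling), just under 1 on day 4 and -0.47 on day 6. Ephb4, the receptor of veins for Efnb2, was the highest of the family, at 8.18, 15.4 and 24.3 FPKM in control and 15.9, 19 and 22.9 FPKM in induced cells, and had a peak 0.186 kb before its start. Ephb2 was at 2.95, 6.15 and 12.3 FPKM in control and 3.38, 4.69 and 9.5 FPKM in induced cells. Ephb3, with a peak 0.29 kb before its start, was at 5.13, 8.34 and 13.2 FPKM in control and 3.84, 5.04 and 9.3 FPKM in induced cells, lower in the induced library on each day without passing 2-fold. Ephb6 ranged from 1.3 to 3.45 FPKM.

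**Figure D4:**
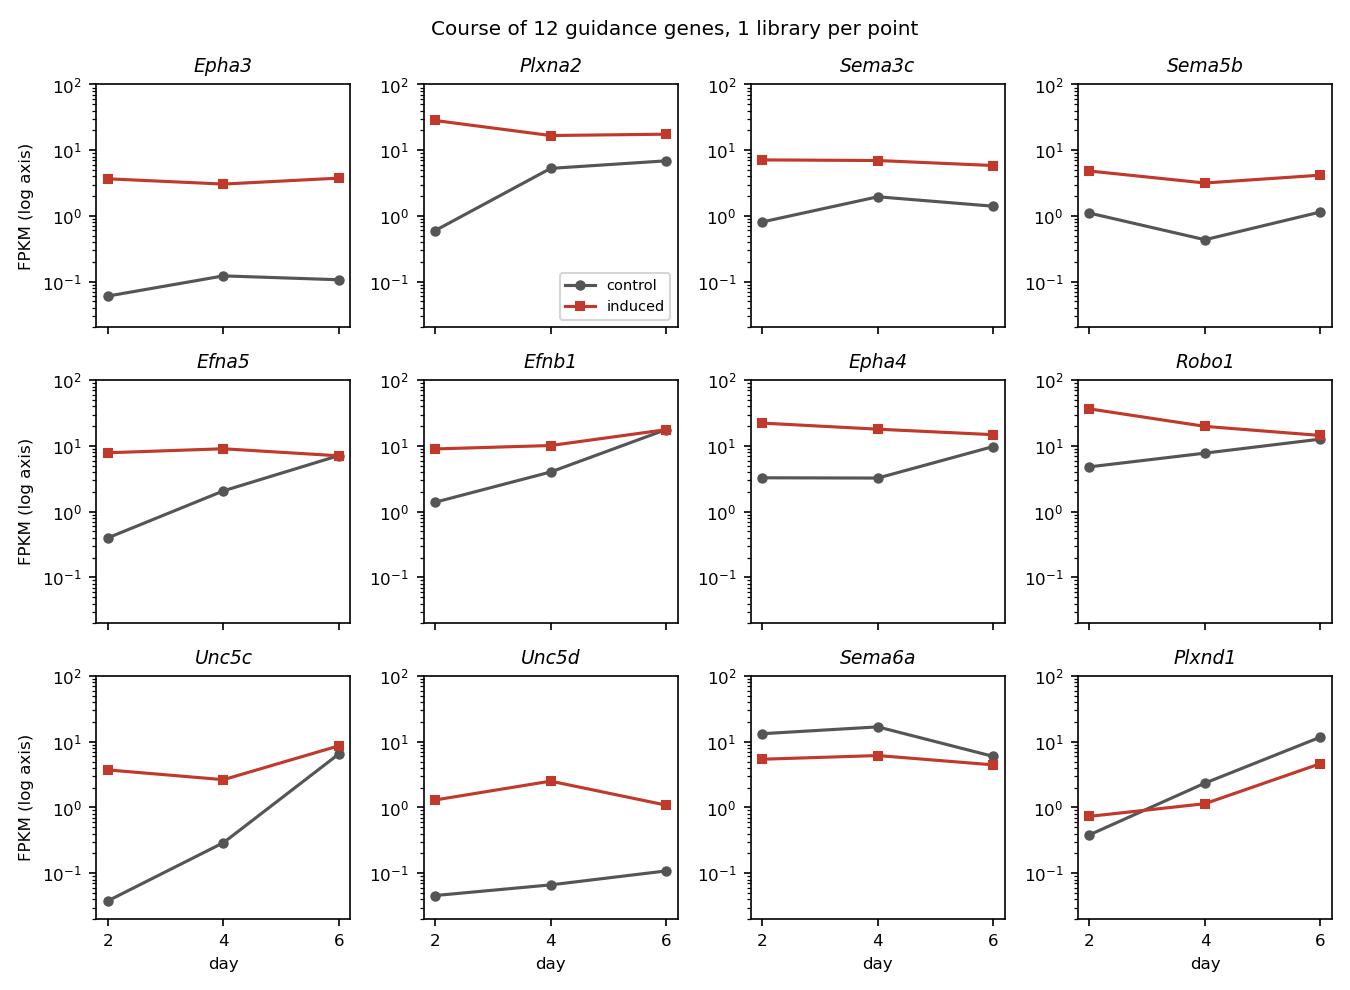
FPKM (log axis) of 12 guidance genes on days 2, 4 and 6 in control (grey circles) and induced cells (red squares), with 1 library per point and no error bars for that reason. Epha3, Plxna2, Sema3c and Sema5b stay apart on all 3 days, and Efna5, Efnb1 and Unc5c come together by day 6 as control cells rise. In Robo1 and Epha4 the control level rises by day 6 and the induced level falls. Epha4 keeps a difference of 0.55 in log2(FPKM + 1) on day 6. Sema6a and Plxnd1 are lower in induced cells on some days.

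Among the Slit receptors, Robo1 was higher in induced cells on days 2 and 4 and Robo2 on day 4. Robo1, which with Robo2 keeps axons from the midline, was at 4.81, 7.78 and 12.7 FPKM in control and 36.7, 19.9 and 14.5 FPKM in induced cells. The induced level fell while that of control cells rose, and the differences were 2.7, 1.25 and 0.17. The gene supplied 93.8% of the summed Robo level in induced cells on day 2 and 69.3% in control cells. Robo2 was at 0.0188, 0.0356 and 2.89 FPKM in control and 0.602, 2.14 and 3.49 FPKM in induced cells, and Robo3, which lets commissural axons cross, at 0.25, 0.263 and 3.68 FPKM in control and 1.16, 1.23 and 6.23 FPKM in induced cells. Both were below 0.3 FPKM in control cells on days 2 and 4 and above 2 FPKM on day 6. Robo4, the Robo of endothelium, was at 1.86, 0.264 and 0.442 FPKM in control and 0.676, 0.296 and 0.171 FPKM in induced cells.

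Of the netrin receptors, Unc5c and Unc5d were higher in induced cells on days 2 and 4. Unc5c, a receptor for repulsion by netrin, was at 0.0379, 0.291 and 6.54 FPKM in control and 3.73, 2.65 and 8.69 FPKM in induced cells. Control cells went from close to nothing to a level near that of induced cells, so that the differences were 2.19, 1.5 and 0.36. Unc5d, a receptor of cortical neurons that also binds Flrt2, was at 0.0457, 0.0663 and 0.108 FPKM in control and 1.3, 2.52 and 1.09 FPKM in induced cells. It stayed near the lower end of the scale in control cells on every day. Unc5b, expressed in vessels, was the highest of the family, at 18.8, 30.8 and 35 FPKM in control and 14.2, 15.4 and 32.8 FPKM in induced cells, with differences of -0.38, -0.96 and -0.09. It made up 98.5% of the summed Unc5 level in control cells on day 2 and 72.1% in induced cells. Unc5a ranged from 0.208 to 1.1 FPKM.

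Over time, more guidance genes passed 2-fold in control than in induced cells, and so did a larger share of all genes. The difference between the arms was not tested. From day 2 to day 6, 30 of 53 guidance genes were higher in control cells and 6 lower, against 17.2% and 6.73% of all genes. In induced cells 13 of 54 were higher and 5 lower, against 7.22% and 5.35%. From day 2 to day 4 the control gave 16 of 47 higher and 2 lower (9.63% and 4.65% of all genes), and the induced cells 3 of 53 higher and 1 lower (2.73% and 2.36%). From day 4 to day 6 the control gave 12 of 51 higher and 4 lower (6.15% and 2.97%), and the induced cells 6 of 54 higher and 2 lower (2.98% and 2.1%). These counts share the day 2 and day 6 libraries with the comparisons between the arms. All 17 genes that were higher in induced cells on day 2 were higher in control cells on day 6 than on day 2 by FPKM, and in 8 of them (Efna3, Efnb1, Epha7, Sema3f, Sema6d, Slit1, Slit2 and Unc5c) control cells on day 6 were at or above induced cells on day 2. Of the 17, 13 were no longer higher on day 6. The 17 were picked against the same control day 2 library, so a low value there would favour the later control rise and the lost calls. The matching shares of all genes higher on day 2 were not computed. Over all genes the share counted as higher also fell, from 9.72% on day 2 to 3.37% on day 6. Some of the rises in control cells were small, as in Sema5b, from 1.1 to 1.15 FPKM.

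A limma fit over all 6 libraries for a slope per 2 days shared by both arms gave 17 guidance genes that rose and 3 that fell of 58, at an adjusted p below 0.05. Among all genes 10.2% rose and 4.96% fell. At an unadjusted p below 0.05 in limma, 27 rose (46.6%) and 5 fell (8.62%), beside 24.2% and 12.6% of all genes. The ligands that rose were Efna1, Efna2, Efna4, Efnb1, Efnb3, Sema3a, Sema4c and Sema5a, and the receptors Ephb2, Ephb3, Ephb4, Plxnb1, Plxnb2, Plxnd1, Robo2, Robo3 and Unc5b. The fit gives both arms the same slope, but the arms did not always rise alike. From day 2 to day 6, Efna2, Efna4, Efnb1, Ephb4 and Plxnb2 passed 2-fold in control cells alone. Unc5b did so in induced cells alone and Plxnb1 in neither arm. Epha2, with a slope of -1.10 ± 0.11 (SE; limma, adjusted p = 0.0159), Sema4a and Sema4d fell. The calls rested on the chosen days and filter: without day 6, or with no filter on low levels, 0 remained, and 4 and 11 passed without day 2 and day 4.

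The markers of several cell types moved with the arms. Neuron markers summed to 118, 90.7 and 44.8 FPKM in control and 192, 154 and 157 FPKM in induced cells (10 of 10 genes in the table, 6 at 1 FPKM or more in each control library and 8 to 10 in induced ones). Neural progenitor markers summed to 5.08, 16.5 and 18.5 FPKM and to 36.5, 45.7 and 89.5 FPKM (6 of 6 genes, 2 to 6 and 4 to 6 at 1 FPKM or more). Markers of feeder fibroblasts, on which the stem cells had been kept, summed to 11.1, 9.28 and 109 FPKM and to 95.8, 41.4 and 35.4 FPKM (7 of 7 genes, 3 to 7 and 4 to 7 at 1 FPKM or more), with Col1a2 alone at 1.76 and 80.2 FPKM on day 2. None of these 23 markers was listed at 0. Some of them ran against their sums. In control and induced cells, Ina was at 26.3 and 13.9 FPKM and Elavl3 at 1.63 and 1.27 FPKM on day 2. On day 4 Nefl was at 14.3 and 12.1 FPKM, Nefm at 2.86 and 1.89 FPKM and Nes at 13.8 and 9.2 FPKM. Thy1, of the fibroblast list, was higher in control cells on each day. Of the progenitor sums in induced cells, Sox21 supplied 22.6 FPKM on day 2 and Fabp7 58.2 FPKM on day 6. Cardiac muscle markers summed to 2.13, 14.1 and 191 FPKM in control and 4.91, 3.69 and 9.42 FPKM in induced cells (5 of 5 genes, 1 to 5 and 1 to 4 at 1 FPKM or more, none listed at 0). Blood markers summed to 1.06, 1.77 and 1534 FPKM and to 0.914, 0.792 and 156 FPKM (5 of 5 genes, 0 to 5 at 1 FPKM or more in each arm), with Hba-x and Hbb-y listed at 0 on day 4 in both arms. The sums of the cardiac muscle and blood lists were thus higher in control cells on days 4 and 6. On day 4 the blood sum rested mostly on Gata1, at 1.42 FPKM in control and 0.193 FPKM in induced cells. Hbb-bh1 (0.121 and 0.232 FPKM) and Klf1 (0.225 and 0.367 FPKM) were higher in induced cells on that day. So was Nkx2-5 of the cardiac list (0.126 and 0.737 FPKM). The 5 neural crest markers summed to 32.2, 7.82 and 3.81 FPKM in control and 6.8, 8 and 14.4 FPKM in induced cells. Foxd3 was at 31.4 and 4.75 FPKM on day 2, whereas Pax3 was at 0.854 and 6.32 FPKM on day 6. The 6 mesoderm markers summed to 3.83, 285 and 73.5 FPKM and to 3.88, 184 and 66.6 FPKM. Mesp1 was listed at 0 in control cells on day 2 and Msgn1 in induced cells. The part of all these cell types in the counts of guidance genes, higher or lower, was not tested.

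Co-receptors and cytoplasmic partners of the same systems were followed in a list of 51 genes, all of them in the table. In induced cells 15 of 40 that reached 1 FPKM were higher on day 2, 10 of 42 on day 4 and 5 of 43 on day 6, and 0, 0 and 1 were lower. Of all genes 9.72%, 6.09% and 3.37% were higher. In limma 0 of 44 passed for the difference between the arms (adjusted p below 0.05), and 15 rose and 0 fell over the days, where 10.2% of all genes rose and 4.96% fell. The 6 with the largest difference on any day were Cntn2, Nrcam, Nrp1, Ntng2, Vav3 and Dpysl4. Cntn2, an axonal adhesion molecule, was at 0.952, 2.02 and 0.466 FPKM in control and 39.8, 8.78 and 5.52 FPKM in induced cells. Nrcam, a partner of neuropilin 2, was at 1.28, 2.88 and 1.54 FPKM and at 12.6, 10.6 and 6.34 FPKM. Nrp1, the co-receptor of Sema3a, was at 0.229, 4.01 and 33.1 FPKM and at 5.03, 3.15 and 25.6 FPKM. Cntn2 and Nrcam were thus apart on all 3 days and Nrp1 on day 2 alone. Ntng2 went from 3.30 to 0.785 FPKM in induced cells and stayed below 0.2 FPKM in control cells. Vav3, an exchange factor downstream of Eph receptors, was at 0.577, 1.33 and 3.26 FPKM and at 4.77, 6.07 and 7.20 FPKM. Dpysl4, of the collapsin response mediator family, was at 0.5, 0.666 and 1.17 FPKM and at 1.78, 3.59 and 6.46 FPKM.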

How the data were processed

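RNA was measured in 6 libraries (control and induced, days 2, 4 and 6) and Oct6-bound chromatin in 1 ChIP library. Reads were handled on the mm9 build with HOMER, Cuffdiff, Cufflinks 1.3.0 and TopHat 1.4.1, per the submitters' processing notes. The deposited table gives FPKM per gene and library, made by the authors, so a count test could not be used and total depth is not known. Relative depth was estimated from the most frequent ratio of low values (67 to 175 genes on that step, against a median of 15 to 18.5 genes at other ratios). The deposited peak list gives positions and a score per peak, the authors' own values. No per-sample column was left unused (0).

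Values were taken as log2(FPKM + 1) with an expression minimum of 1 FPKM. limma 3.58.1 in R 4.3.3 (lmFit, eBayes with trend, two-sided, Benjamini-Hochberg over 13661 genes) was run blocked by day (residual degrees of freedom 2) and for a day slope (3), and was tested on simulated data. Days stand in for replicates. Gene starts are the 5′ ends of annotated genes of NCBIM37, the assembly behind mm9, and 14 peaks on unplaced contigs were left out. Python 3.11.15, pandas 2.3.3, pysam 0.24.0 and matplotlib 3.10.9 were used.

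The members and lists were chosen with earlier results of these data known. Values in all 6 libraries are given for members that passed 2-fold between the arms on at least 1 day, for the highest member of each family, for members that passed 2-fold from day 2 to day 6 in both arms, and for members with an Oct6 peak. A few others were named after their values had been seen (Efna2, Sema4d, Sema7a, Epha8, Ntn3, Robo4). Other pseudocounts, filters, scalings, thresholds, days left out and peak distances were tried. Sequences of the remaining peaks are not printed.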

Additional observations from a re-analysis of the deposited data

Results flagged for a closer look

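Efnb2, the ephrin of arteries, was singled out because its difference between the arms passed 1.5-fold in opposite directions on different days. Induced minus control, in log2(FPKM + 1), was 0.62 on day 4 and -0.69 on day 6, after -0.47 on day 2. The day 4 value rests on the scaling: it was 0.51 with median ratio scaling and 0.47 with quantile scaling, both below the 1.5-fold mark of 0.585, while day 6 gave -0.75 and -0.78. These scalings of the gene were added after seeing the data. The levels were 13.1, 7.25 and 19.4 FPKM in control cells on days 2, 4 and 6 and 9.15, 11.6 and 11.6 FPKM in induced cells, so the turn lies mostly in the control libraries. With 1 library per arm and day the difference between the days was not tested.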

How the results depend on the processing

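The counts of guidance genes that were 2-fold higher in induced cells stayed within 1.5 times on every day under every setting tried. The counts of lower genes, which are small, moved: on day 2 from 1 to 3 with a pseudocount of 0.1 or 0.5, to 2 with median ratio scaling, to 3 with quantile scaling and to 4 at 1.5-fold; on day 4 from 2 to 4 with a pseudocount of 0.1 or median ratio scaling and to 7 at 1.5-fold; on day 6 from 1 to 2 with a pseudocount of 0.1 and to 5 at 1.5-fold. Among all genes the lower counts moved too. On day 2 they went from 230 to 383 with a pseudocount of 0.1, 459 with quantile scaling and 761 at 1.5-fold. On day 4 they went from 268 to 428 with a pseudocount of 0.1 and to 722 at 1.5-fold. On day 6 they went from 269 to 434 and 637 under the same settings. With a pseudocount of 0.1, 25 members were higher and 5 lower in control cells between days 2 and 4, 7 were higher in induced cells between those days (6 with 0.5), and 4 were lower in induced cells between days 4 and 6. With a minimum of 3 FPKM, 1 was lower in control cells between days 2 and 4. Counts of all genes between days were not computed under these settings. The day 6 median of the members, 0.02, turned to -0.035 with median ratio scaling and -0.048 with quantile scaling. In limma 1 member, Epha4, passed for the arm without day 6, where 44 of all genes did. The slope count of 20 went to 0 with no filter, and to 4, 11 and 0 without day 2, day 4 or day 6, settings chosen after seeing the data; over all genes it went from 2065 to 0 with no filter and to 162, 791 and 5 without those days. Members with a peak near the start numbered 8 within 5 kb (12.1%, beside 10.4% of all genes), 26 within 50 kb (39.4%, beside 32%) and 1 with peaks above the median score (1.52%, beside 4.62%). In the body 11 had a peak above the median score (16.7%, beside 4.53%). Of genes that reached 1 FPKM, 14.6% had a peak within 5 kb and 38.9% within 50 kb. With peaks above the median score, the shares of these genes were 6.28% within 10 kb and 5.74% in the body. Of the recomputed differences of single members 253 kept their call, 13 lost it and 0 reversed; of the single slopes 118 kept it and 81 lost it. Where fewer libraries, genes or peaks were used, that alone can lower a count; for the rest the cause was not tested.

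No paired analysis was possible because each arm and day had 1 library and no replicate number; the limma fit for the arm has day as its block. Differences within a day therefore carry no error, limma measures the spread between 3 days and not between cultures, the FPKM values keep no total depth, and members below 1 FPKM could not be counted. The peak list is from 1 ChIP library, without a replicate.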

Other observations

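Several guidance genes share a stretch of a chromosome on the mm9 build, and their levels differed within these groups. Efna1, Efna3 and Efna4 lie within chr3:89075655-89141950. In control cells on day 4 they were at 6.6, 17.9 and 16 FPKM, and in induced cells at 4.13, 13.3 and 18.4 FPKM. Robo3 and Robo4 adjoin on chromosome 9 on opposite strands, and on day 6 Robo3 was at 3.68 FPKM in control and 6.23 FPKM in induced cells while Robo4 was at 0.442 and 0.171 FPKM. On chromosome 5, Sema3d, Sema3a, Sema3e and Sema3c come in this order, but they are not all adjacent. Sema3e ends at position 14256689 and Sema3c starts at 17080099. Of these 4 genes Sema3c, with no peak listed, was 2-fold higher in induced cells on all 3 days, and Sema3a, with 2 intronic peaks, and Sema3e, with none, were so on no day. Sema3d did not reach 1 FPKM.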
